A study of Homo sapiens with 18 samples.

Results

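Cytochrome P450 genes were followed across 18 arrays of liver cancer cells. A gene was taken when a probe set of the array named it alone and its symbol was CYP followed by a number, a letter and a number, with pseudogenes left out. Where a gene had several probe sets, that with the highest mean signal was used. This gave 47 P450 genes on 92 probe sets, out of 19775 genes measured in all, and 21 of the 47 had more than 1 probe set. CYP21A2, CYP2D7, CYP3A7, CYP4A22 and CYP51A1 were named only by probe sets shared with other genes and were left out by this rule.

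Cytochrome P450 enzymes are heme proteins that insert an oxygen atom into small molecules, with electrons passed on by POR at the endoplasmic reticulum or by FDX1 in mitochondria. The liver holds more of them than any other organ and uses them to clear drugs, to make bile acids from cholesterol and to handle fatty acids, steroids, retinoids and vitamin D. Many of their genes are switched on by receptors that sense the substrate, such as AHR for planar aromatic compounds, and many are lost when hepatocytes become cancer cells. By role, the members comprised 18 drug and xenobiotic enzymes of families 1 to 3, 11 family 4 enzymes that act mainly on fatty acids, 6 enzymes of bile acid and oxysterol metabolism, 5 of steroid hormone synthesis, 3 of vitamin D metabolism, 3 of retinoid metabolism and the orphan enzyme CYP20A1.

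The study evaluated ATAD2, a chromatin protein with a bromodomain and an ATPase domain, as a target in hepatocellular carcinoma. Hep3B, SNU449 and PLC (PLC/PRF/5) are established lines from human liver tumours. Cells of each, grown in RPMI, were transfected with the lipid reagent Lipofectamine RNAiMax and received either an siRNA against ATAD2 or a non-targeting control siRNA, which gave 6 groups of 3 arrays labelled as biological replicates. No time after transfection and no siRNA sequence was used here, and a group is 1 line, so nothing in it varies between donors. On the log2 scale used throughout, the Hep3B controls gave ATAD2 signals of 8.94, 8.93 and 9.02, and the siRNA lowered them to 5.15, 4.70 and 5.65. The log2 change of ATAD2 was -3.80 ± 0.16 (SE) in Hep3B, -2.39 ± 0.16 in SNU449 and -2.62 ± 0.16 in PLC, with n = 3 arrays per group.

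Before the P450 genes are described, 3 features of these arrays need stating. The arrays labelled SNU449 carried the profile of hepatocytes, with albumin (ALB) at 13.78, 13.75 and 13.75 on the control arrays and RB1 at 4.63, 4.42 and 4.27. The arrays labelled Hep3B had ALB at 2.90, 3.16 and 3.02 and RB1 at 9.47, 9.44 and 9.51, whereas Hep3B is known as a line that makes albumin and has lost RB1. The mean log2 signal of 13 hepatocyte markers was 11.38 to 11.43 on SNU449 control arrays, 9.64 to 9.69 on PLC control arrays and 5.54 to 5.64 on Hep3B control arrays, where ALB, AFP, APOA1, APOA2, APOB, APOC3, APOH, TF, SERPINA1 and AHSG lay within the range of silent genes. TTR, FGA and FGB lay above that range there. FGB went the other way, at 11.42 to 11.53 on Hep3B and 6.75 to 6.96 on SNU449 control arrays. That of 8 mesenchymal markers was 9.67 to 9.70 in Hep3B, 6.29 to 6.34 in SNU449 and 7.36 to 7.41 in PLC controls. These markers go against both labels, and whether the names Hep3B and SNU449 were exchanged was not tested. Groups keep their labels below, and each name stands for the arrays so labelled, not for the line known by that name. The 5′ minus 3′ signal of control transcripts, a gauge of RNA quality, was -1.15 and -1.09 on replicates 1 and 3 of PLC ATAD2 siRNA, against -0.46 on replicate 2 and -0.59 to -0.44 on PLC control arrays. The deposited values of PLC lay lower as a whole, with array medians of 4.14 to 4.21 against 5.36 to 5.62 in the other lines, and all arrays were therefore brought to 1 distribution by quantile normalization.

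Start regions of 3 P450 genes are shown because their signals differed between the lines or after ATAD2 siRNA and because a motif of a receptor that regulates P450 genes was found there. Each line gives the 250 bases before the transcription start in RefSeq's GRCh38.p14, read 5′ to 3′ on the gene's own strand, with motif matches in capitals. CYP1A1, which oxidises aromatic hydrocarbons, lies on the minus strand with this window at chr15:74725529-74725778. CYP2J2, which makes epoxides of arachidonic acid, lies on the minus strand at chr1:59926774-59927023. CYP3A5, a drug-metabolising enzyme, lies on the minus strand at chr7:99679997-99680246. Capitals mark the core letters of the AHR site (GCGTG) in CYP1A1 and CYP2J2, a TATA box (TATAAA) in CYP1A1 and a nuclear receptor half-site (AGGTCA) in CYP3A5.
CYP1A1: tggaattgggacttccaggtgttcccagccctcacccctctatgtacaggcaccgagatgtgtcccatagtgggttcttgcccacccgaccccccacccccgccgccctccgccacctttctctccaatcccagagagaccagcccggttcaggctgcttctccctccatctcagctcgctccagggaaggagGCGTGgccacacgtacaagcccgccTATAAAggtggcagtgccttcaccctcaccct
CYP2J2: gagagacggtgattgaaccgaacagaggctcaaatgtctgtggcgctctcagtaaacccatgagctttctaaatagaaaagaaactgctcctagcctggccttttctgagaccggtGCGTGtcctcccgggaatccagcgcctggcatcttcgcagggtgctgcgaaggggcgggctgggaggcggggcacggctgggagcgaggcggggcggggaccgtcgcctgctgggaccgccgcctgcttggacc
CYP3A5: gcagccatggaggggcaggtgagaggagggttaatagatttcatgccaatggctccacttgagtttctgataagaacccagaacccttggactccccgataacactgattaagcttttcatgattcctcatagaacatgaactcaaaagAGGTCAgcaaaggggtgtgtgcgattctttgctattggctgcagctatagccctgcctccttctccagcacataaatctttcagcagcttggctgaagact

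The AHR core began 57 bases before the start in CYP1A1 and 134 bases before it in CYP2J2, the TATA box 32 bases before the start in CYP1A1, and the half-site 101 bases before it in CYP3A5. Both strands were searched, and the motifs do not overlap one another in these windows. GCGTG occurred in 32.2% of the 35116 start regions in the table and in 9 of the 47 regions that belonged to P450 genes, which covered 34 of the members. AGGTCA occurred in 12.1% of all regions and in 11 of the 47 P450 regions, CYP19A1, CYP2E1 and CYP3A4 among them. TATAAA occurred in 10.7% of all regions and in 14 of the 47 P450 regions. The E2F motif TTTNNCGC occurred in 5.92% of all regions and in 3 P450 regions, which belonged to CYP2R1 and CYP4X1, and the E-box CACGTG in 6.34% and in 2, those of CYP20A1 and CYP26A1. A match is only a run of letters in the window.

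Most P450 genes gave dim signals in these lines. As a gauge of background, the 95th percentile of 82 olfactory receptor genes, which liver cells are not known to use, lay between 5.43 and 5.70 in the 6 groups. Between 55.1% and 58.7% of all genes had a group mean above it, and 13 to 18 of the 47 P450 genes did, which is 27.7% to 38.3% of them. CYP27A1, CYP1A2, CYP2A6, CYP2D6, CYP3A4, CYP20A1, CYP26B1 and CYP2R1 lay above this range in all 6 groups. Another 15 members lay above it in some groups and 24 in none. This holds for the brightest probe set of each gene. The other of CYP1A2 had control means of 5.54 (Hep3B), 5.12 (SNU449) and 5.33 (PLC), within the range. Other CYP3A4 probe sets had control means of 4.04 to 5.66, above the range only at 5.66, in PLC. CYP2A6, CYP2D6, CYP26B1 and CYP2R1 also had weaker probe sets within it in some or all control groups.

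The members within the background range in all groups included enzymes that define the mature liver. CYP7A1, the rate-limiting enzyme of bile acid synthesis, lay between 2.21 and 2.75 over the 18 arrays, and CYP8B1, which makes the precursor of cholic acid, between 4.29 and 4.93. CYP2C8 and CYP2B6, which clear drugs, were also within the range in all groups. So were all 5 steroid hormone enzymes, among them the aromatase CYP19A1 at 4.39 to 4.89, and the retinoic acid hydroxylase CYP26A1 at 4.43 to 4.89. The arrays labelled SNU449 were no exception, although ALB was above 13 there: their control group had 14 members above the range, which comprised 6 of the 18 drug enzymes, 3 of the 11 family 4 enzymes, 2 of the 6 bile acid enzymes and 3 others. For genes within this range a change of the signal says little about the change of the transcript.

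After ATAD2 siRNA, few P450 genes were called. A gene was called when its p-value from limma's moderated test, adjusted by the Benjamini-Hochberg method over all 19775 genes, was under 0.05. In Hep3B 3 of the 47 members were called (6.38%), where 16.4% of all genes were. In SNU449 none of the 47 was called by limma, where 0.258% of all genes were. In PLC 2 of 47 members were called (4.26%), against 4.57% of all genes. The share of all genes in PLC rested on single arrays: it was 16.3% without ATAD2 siRNA replicate 2 and 2.41% without replicate 1, with 3 and 2 members called, and 0.0759% when PLC was fitted by itself, with no member called. In Hep3B the low share of members did not hold under a filter. Without the dimmest 30% of genes 7 of 24 members (29.2%) were called, beside 27.2% of all genes. The median log2 change of the members was -0.02 in Hep3B, -0.06 in SNU449 and -0.01 in PLC, beside -0.02, -0.02 and 0.01 for all genes. These are measurements of whole cultures, in which fewer cells of a type and less RNA per cell cannot be told apart.

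**Figure D1:**
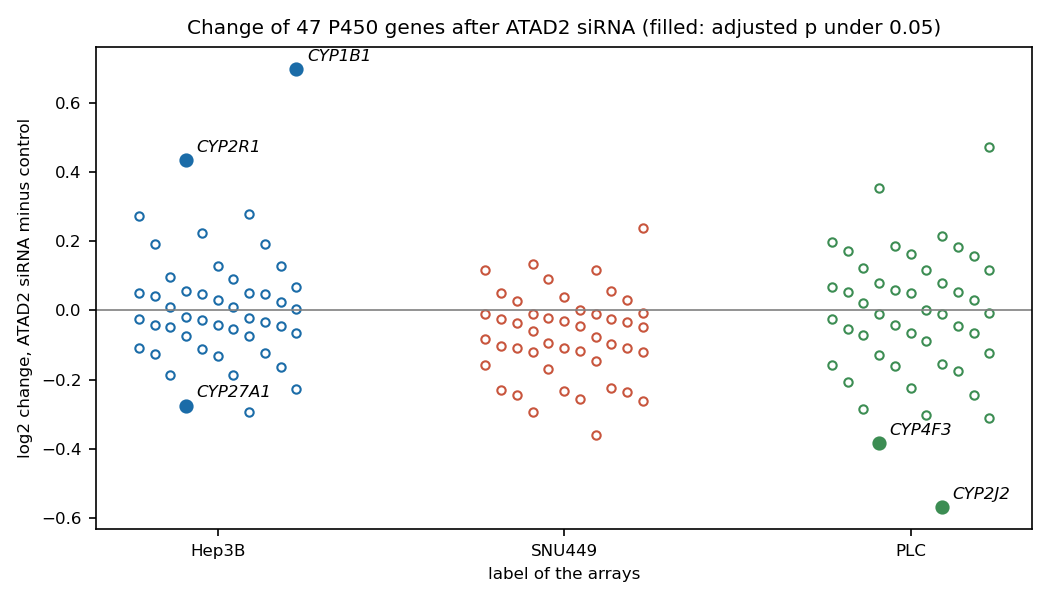
Log2 change after ATAD2 siRNA (y axis) of the 47 P450 genes in the arrays labelled Hep3B, SNU449 and PLC (x axis, points spread sideways for legibility). Each point is 1 gene, the difference of 2 means of 3 arrays, and the 5 named filled points are the calls at an adjusted p under 0.05: CYP1B1 and CYP2R1 above zero and CYP27A1 below it in Hep3B, and CYP2J2 and CYP4F3 below it in PLC.

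CYP1B1, which oxidises oestradiol and polycyclic hydrocarbons and is a target of AHR outside the liver as well, rose in Hep3B. The controls gave 10.47, 10.46 and 10.43, and the treated arrays 11.06, 11.38 and 11.01. All 3 treated arrays lay above all 3 controls. The log2 change of 0.70 ± 0.14 (SE, n = 3 per group) is a 1.62-fold higher signal (limma, adjusted p = 0.00191). Of the other probe sets of CYP1B1, 2 gave log2 changes of 0.65 and 0.69, with adjusted p-values over all probe sets of 0.000297 and 0.0499. The remaining probe set, which was dim in all lines with a Hep3B control mean of 4.13, gave 0.25 with an adjusted p of 0.447. In SNU449 and PLC all CYP1B1 values lay between 3.81 and 4.81, within the background range, and the changes of -0.03 and 0.20 were not called.

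CYP2R1, the hepatic vitamin D 25-hydroxylase, also rose in Hep3B. The controls gave 7.68, 7.76 and 7.70, and the treated arrays 8.16, 8.08 and 8.20. The groups did not overlap, and the log2 change of 0.43 ± 0.06 (SE) is a 1.35-fold higher signal (limma, adjusted p = 0.000152). SNU449 gave 7.02, 7.14 and 7.17 against 7.07, 7.13 and 7.29 after treatment, and PLC 8.06, 8.07 and 8.09 against 8.12, 8.08 and 8.23. Both of these pairs of groups overlapped, with changes of 0.06 and 0.07. A weaker probe set of CYP2R1 gave a change of 0.44 in Hep3B (adjusted p over all probe sets 0.0887), and the weakest gave 0.02.

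CYP27A1, the mitochondrial sterol 27-hydroxylase of the alternative bile acid pathway, fell in Hep3B by a smaller amount. Control values of 7.72, 7.75 and 7.85 stood against treated values of 7.59, 7.39 and 7.52. The groups did not overlap, and the log2 change was -0.27 ± 0.08 (SE; limma, adjusted p = 0.0262). The call depended on the scaling: the change was -0.18 (adjusted p = 0.139) on the values as deposited and -0.14 (adjusted p = 0.235) with each array centred on its median. The call was also lost without Hep3B control replicate 2 or 3 and without Hep3B ATAD2 siRNA replicate 2 or 3, where the adjusted p reached at most 0.113. Replicate 2 of Hep3B ATAD2 siRNA, the lowest for CYP27A1, had a 5′ minus 3′ signal of -0.42 against -0.79 to -0.65 on the other Hep3B arrays. A fit with this signal as a covariate gave -0.25 (adjusted p = 0.0164), so that the call held there. In SNU449 the change of CYP27A1 was -0.01 and in PLC 0.16, neither called.

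CYP2J2, the arachidonic acid epoxygenase, fell in PLC. Control values of 6.91, 6.96 and 6.89 stood against treated values of 6.17, 6.44 and 6.43. All treated arrays lay below all controls, and the log2 change of -0.57 ± 0.09 (SE) is a 1.48-fold lower signal (limma, adjusted p = 0.0043). The array with the better RNA gauge, replicate 2, was at 6.44, below all controls. With replicates 1 and 3 left out the change was -0.47 (adjusted p = 0.0334), a value from 1 treated array that is assumed to vary like the other groups. The call was lost when PLC was fitted by itself (adjusted p = 0.189). In the other lines the values were 5.43, 5.44 and 5.18 against 5.65, 5.53 and 5.69 in Hep3B, where all treated arrays lay above the controls and both group means were within the background range, and 6.53, 6.70 and 6.76 against 6.72, 6.59 and 6.50 in SNU449, where the groups overlapped.

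CYP4F3, the leukotriene B4 omega-hydroxylase, was the other gene called in PLC. The controls gave 8.25, 8.07 and 8.13, and the treated arrays 7.83, 7.64 and 7.83. The groups did not overlap, and the log2 change was -0.38 ± 0.10 (SE; limma, adjusted p = 0.0439). Replicate 2 was the lowest of the treated arrays, and against it alone, without replicates 1 and 3, the controls gave a change of -0.51 (adjusted p = 0.0619, n = 1 treated array with limma's spread taken from the other groups). The call did not hold under 19 of 28 other settings, among them leaving out any single PLC array, where the adjusted p reached at most 0.135. In Hep3B and SNU449 all CYP4F3 values lay between 2.85 and 3.68, within the background range.

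CYP4F3 stands in a run of related genes on chromosome 19, in the order CYP4F22, CYP4F8, CYP4F3, CYP4F12, CYP4F2 and CYP4F11 in RefSeq. The others gave changes in PLC of -0.01, -0.24, -0.07, -0.30 and -0.29 in that order, none of them called. CYP4F2, the vitamin K and fatty acid omega-hydroxylase, gave 6.23, 6.19 and 6.29 in PLC controls and 5.90, 5.96 and 5.94 in treated PLC cells, which did not overlap (adjusted p = 0.0789). In SNU449 it was at 5.65, 5.67 and 5.84 against 5.59, 5.15 and 5.34, a change of -0.36 with an adjusted p of 0.137. These genes are close in sequence and probe sets of the array can take up more than 1 of them, so that their signals are not separate measurements with certainty.

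**Figure D2:**
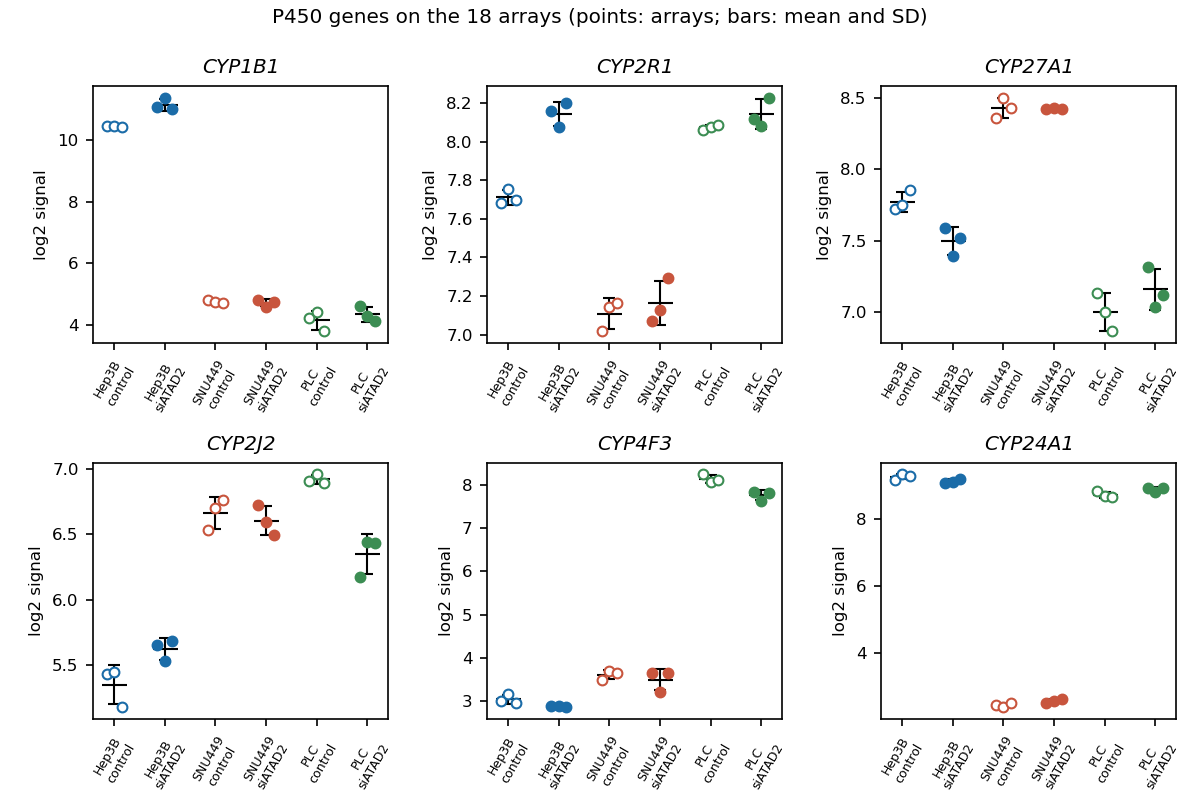
Log2 signal after quantile normalization (y axis, a separate scale in each panel) of 6 P450 genes in the 6 groups (x axis). Points are arrays, open for control siRNA and filled for ATAD2 siRNA, and black bars give the mean and SD of 3 arrays: CYP1B1 and CYP2R1 rise and CYP27A1 falls in Hep3B, CYP2J2 and CYP4F3 fall in PLC, and CYP24A1 is near 2.5 in SNU449 and above 8.6 in the other lines.

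Other features of the PLC arrays also differed between ATAD2 siRNA and control. Of 13 hepatocyte markers 8 fell in PLC, and their mean log2 signal was 9.22 to 9.27 after ATAD2 siRNA against 9.64 to 9.69 on control arrays. Replicate 2, whose RNA gauge matched the controls, had ALB at 9.78 against 10.52 to 10.65 on control arrays. With the 5′ minus 3′ signal as a covariate the change of CYP2J2 was -0.51 (adjusted p = 0.0336) and that of CYP4F3 -0.49 (adjusted p = 0.0554). What part the lower hepatocyte signals have in the change of either gene was not tested.

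The 44 members not called in Hep3B had log2 changes between -0.29 and 0.28, the 47 in SNU449 between -0.36 and 0.24 and the 45 in PLC between -0.31 and 0.47. The 95% interval of the change lay within 0.5 log2 units of zero for 42 of the 47 members in Hep3B, 43 in SNU449 and 37 in PLC, and within 1 log2 unit for all 47 in each line. For each gene these intervals and all SEs use a spread pooled over all groups. The median SD of the members was 0.144 in PLC ATAD2 siRNA and 0.079 to 0.093 in the other groups. Intervals and SEs given for PLC can therefore be too narrow. The treated arrays lay wholly above the controls for 6 members and wholly below for 7 in Hep3B, for 0 and 8 in SNU449, and for 0 and 7 in PLC. The share of all genes separated in this way was not counted. These counts therefore have no background and cannot tell whether P450 genes shifted as a group. The uncalled members with the smallest unadjusted p were CYP2J2 (0.27) in Hep3B, CYP2A7 (-0.29) in SNU449 and CYP7A1 (-0.31) in PLC. CYP3A4, the main drug-metabolising P450 of adult liver, changed by -0.05 in Hep3B, -0.08 in SNU449 and 0.18 in PLC, none of them called. CYP24A1, which breaks down active vitamin D, gave -0.13, 0.12 and 0.16, also uncalled.

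The response to ATAD2 siRNA differed between the lines for 3 of the 47 members (6.38%) by limma's F test over both interaction terms, where 9.18% of all genes were called. CYP2J2 had the smallest adjusted p, 0.00192. Its change in PLC was lower than that in Hep3B by 0.84 log2 units (-0.84 ± 0.13, SE; adjusted p = 0.000773), whereas SNU449 against Hep3B gave -0.33 ± 0.13 (adjusted p = 0.181) and SNU449 against PLC 0.51 ± 0.13 (adjusted p = 0.104). CYP2R1 was called with an adjusted p of 0.0177. Its rise in Hep3B exceeded the change in SNU449 by 0.38 ± 0.09 (adjusted p = 0.0192) and the change in PLC by 0.37 ± 0.09 (adjusted p = 0.0184). CYP7A1 was called with an adjusted p of 0.0452 at a signal within the background range in every group, with changes of 0.13 in Hep3B and SNU449 and -0.31 in PLC. That call was lost under 18 of 27 other settings, among them all 3 other scalings, where the adjusted p was 0.232 to 0.389. CYP1B1 had an adjusted p of 0.0555, above the threshold, and was called under the 3 other scalings (0.0073 on the deposited values, 0.00961 with quantile normalization within each line, 0.00377 after centring), with the mean of its probe sets (0.00696) and with the replicate block (0.0355). Its change in SNU449 was lower than that in Hep3B by 0.73 log2 units (-0.73 ± 0.20, SE; adjusted p = 0.0347).

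More P450 genes were called between the control groups than after ATAD2 siRNA, as was so for all genes, though the thresholds differ. A difference between control groups was called at an adjusted p under 0.05 and at least 1 log2 unit. Of the 47 members 10 differed between SNU449 and Hep3B (21.3%; 19.7% of all genes), with 5 higher and 5 lower in SNU449. Between PLC and Hep3B 12 differed (25.5%; 18.4% of all genes), with 7 higher and 5 lower in PLC, and between SNU449 and PLC 10 differed (21.3%; 19.2% of all genes), with 6 higher and 4 lower in SNU449. In all, 21 members were called in at least 1 pair, and CYP27B1, CYP4F11 and CYP4F22 among them were within the background range in every group. The comparisons share control arrays and are not independent of each other. The same control groups differed in the hepatocyte and mesenchymal markers given above, whose part in these differences was not tested.

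These splits depend on the scaling wherever PLC enters, since its deposited values were lower as a whole. Set against Hep3B, PLC had 2 members higher and 28 lower on the values as deposited, with a median difference of -0.63 over all genes. With arrays centred on their medians 14 were higher and 4 lower, with a median of 0.62. Of all genes 1476 were higher and 7034 lower on the deposited values, and 7390 and 846 after centring. SNU449 against PLC gave 24 higher and 2 lower on the deposited values (median of all genes 0.76) and 1 higher and 15 lower after centring (median -0.69). Of all genes it gave 8084 and 1338, and 713 and 7863. SNU449 against Hep3B gave 6 and 5, and 4 and 6, with medians of 0.15 and -0.06. Of all genes it gave 2094 and 1660, and 1510 and 2108. The members called the same way under all 3 scalings numbered 9 for SNU449 against Hep3B, 6 for PLC against Hep3B and 3 for SNU449 against PLC. Unless said otherwise, the differences described next belong to these.

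Among the drug and xenobiotic enzymes, CYP1B1 and CYP1A1, 2 AHR targets of family 1, ran in opposite directions. CYP1A2, the other member of family 1, was not called between control groups after quantile normalization. Its log2 differences from Hep3B were -0.05 in SNU449 and -0.53 in PLC. CYP1B1 was at 10.43 to 10.47 on Hep3B control arrays, at 4.72 to 4.81 in SNU449 and at 3.81 to 4.41 in PLC. Signals in SNU449 and PLC were within the background range, so that a fold is a lower bound. With the 95th percentile of the olfactory receptor genes as the floor of the dimmer group, here and below, Hep3B was at least 28.2-fold higher than SNU449 and at least 32.5-fold higher than PLC. All such bounds hold for the quantile normalized values only, and under another scaling a fold can be smaller. CYP1A1 was at 5.35, 5.14 and 5.27 in Hep3B, within that range, at 7.21, 7.04 and 7.13 in SNU449 and at 7.51, 7.54 and 7.52 in PLC. Its signal was at least 2.70-fold higher in SNU449 and at least 3.55-fold higher in PLC than in Hep3B (log2 signal differences 1.88 ± 0.08 and 2.27 ± 0.08, SE), while SNU449 against PLC gave -0.40, under the minimum of 1, with 0.02 on the deposited values and -1.44 after centring. On the deposited values the log2 signal difference of CYP1A1 in PLC from Hep3B was 1.73, a smaller fold than the bound given.

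CYP3A5 was at 6.55, 6.47 and 6.47 in Hep3B, 3.34 to 4.13 in SNU449 and 4.05 to 4.60 in PLC. The latter 2 were within the background range, and Hep3B was at least 1.81-fold and 2.09-fold higher. CYP2U1, a fatty acid hydroxylase found in many tissues, was at 7.23, 7.48 and 7.48 in Hep3B, 5.42 to 5.58 in SNU449 and 5.49 to 5.61 in PLC. With the probe sets used, both genes were thus high on every Hep3B array and did not overlap with the other lines, though the call for CYP2U1 against PLC was lost with the mean of its probe sets. A weaker CYP3A5 probe set had control means of 4.95 in Hep3B, 3.75 in SNU449 and 4.73 in PLC, all within the background range. Another had 5.86, 3.52 and 4.22, and the weakest lay at 2.45 to 2.78. CYP2J2 was within the background range in Hep3B and at least 1.95-fold higher in SNU449. It was at least 2.33-fold higher in PLC, a difference that fell below 1 log2 unit on the deposited values. CYP3A4 was at 6.68, 6.72 and 6.69 in SNU449 and at 5.59, 5.47 and 5.44 in PLC, with a difference of 1.20 that was 0.81 with arrays centred on their medians and 0.08 (adjusted p = 0.275) with the mean of its probe sets, neither called. CYP2E1, the ethanol-inducible P450, was within the background range in all control groups, at 4.84 to 5.07 in Hep3B, 5.51 to 5.77 in SNU449 and 4.58 to 4.64 in PLC. CYP2S1 was at least 1.95-fold higher in PLC than in SNU449, where it was within the background range, and the call was lost on the deposited values.

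**Figure D3:**
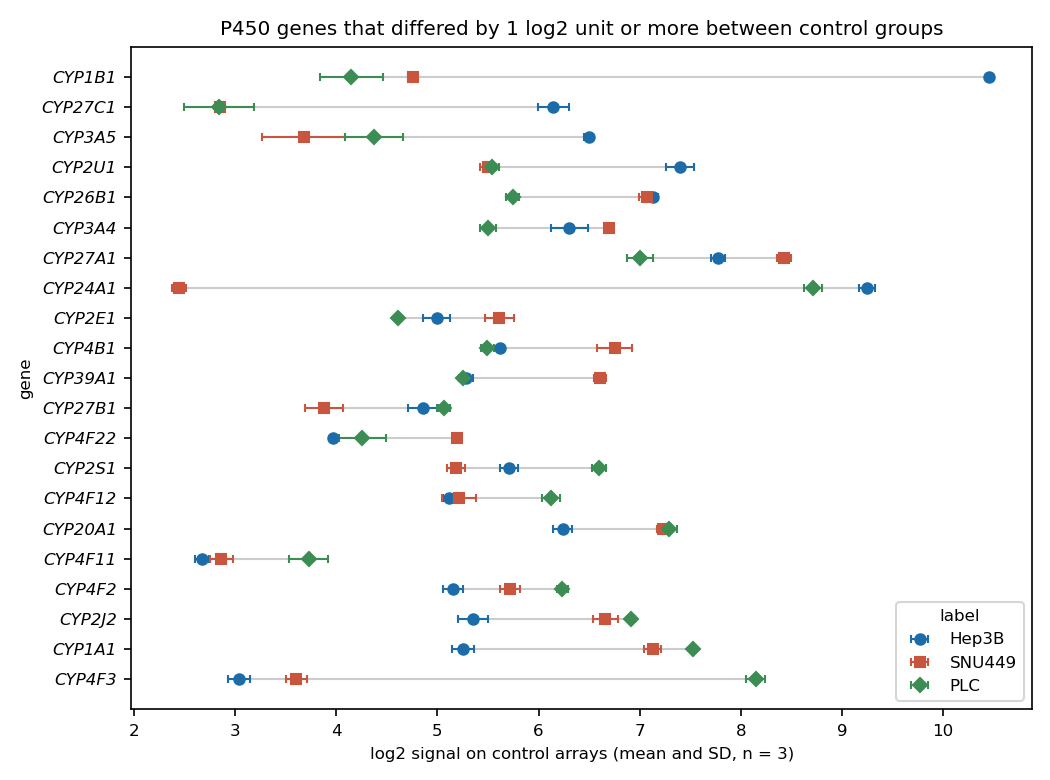
Log2 signal after quantile normalization on control arrays (x axis) of the 21 P450 genes that were called between at least 1 pair of control groups (y axis). Symbols are means of 3 arrays and bars their SD: CYP1B1, CYP27C1, CYP3A5 and CYP2U1 stand highest in Hep3B, CYP4F3 in PLC and CYP39A1 in SNU449, CYP24A1 is low in SNU449 alone, and smaller differences that involve PLC changed in size or sign with the scaling.

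The vitamin D and retinoid enzymes held the largest difference. CYP24A1 was at 9.16, 9.32 and 9.26 in Hep3B, at 2.46, 2.37 and 2.51 in SNU449 and at 8.81, 8.69 and 8.64 in PLC. SNU449 thus gave a background signal, and Hep3B was at least 12.2-fold and PLC at least 8.45-fold higher (log2 signal differences of SNU449 from them -6.80 ± 0.06 and -6.27 ± 0.06, SE; limma, adjusted p = 2.33e-21 and 1.65e-20). Hep3B and PLC differed by 0.53, under the minimum, with the opposite sign after centring. CYP27B1, which makes active vitamin D, was within the background range in all groups. CYP27C1, which desaturates retinoids, was at 6.27, 6.19 and 5.97 in Hep3B and between 2.58 and 3.24 on the control arrays of the other lines, within the background range, so that Hep3B was at least 1.42-fold higher than SNU449 and at least 1.64-fold higher than PLC. CYP26B1, which degrades retinoic acid, was 2.62-fold lower in PLC than in Hep3B and 2.51-fold lower than in SNU449, and neither call held with arrays centred on their medians or with the mean of its probe sets.

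Among the fatty acid enzymes, CYP4F3 was at 2.99, 3.16 and 2.96 in Hep3B, at 3.49, 3.68 and 3.64 in SNU449 and at 8.25, 8.07 and 8.13 in PLC. Signals in Hep3B and SNU449 were within the background range, and PLC was at least 5.47-fold higher than Hep3B and at least 5.71-fold higher than SNU449 (log2 signal differences of 5.11 ± 0.10 and 4.55 ± 0.10 in size, SE). Its neighbours CYP4F2 and CYP4F12, within the background range in Hep3B, were at least 1.45-fold and 1.35-fold higher in PLC, and CYP4F11 was called as well with both groups within that range. None of the 3 was called the same way under all 3 scalings. CYP4B1 was at least 2.08-fold higher in SNU449 than in Hep3B, where it was within the background range, and 2.39-fold higher than in PLC, and neither call held under all 3 scalings.

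Of the bile acid and oxysterol enzymes, CYP39A1, the oxysterol 7-alpha-hydroxylase for 24-hydroxycholesterol, was at 6.56, 6.59 and 6.68 in SNU449, at 5.24 to 5.36 in Hep3B and at 5.23 to 5.28 in PLC. Both of the latter were within the background range, and SNU449, the arrays with the hepatocyte profile, stood at least 1.88-fold and 2.26-fold higher. CYP27A1 was 2.69-fold higher in SNU449 than in PLC, a call lost after centring. The orphan CYP20A1 was at 6.35, 6.15 and 6.21 in Hep3B and between 7.18 and 7.37 on the control arrays of the other lines. Its log2 difference of 1.05 between PLC and Hep3B was called, though not on the deposited values, whereas that of 0.995 between SNU449 and Hep3B fell just short of the minimum.

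The genes that serve or regulate P450 enzymes were counted from fixed lists. Of 6 electron donors measured, POR, the reductase of the microsomal enzymes, rose by 0.21 (adjusted p = 0.043) and FDX1, the ferredoxin of the mitochondrial enzymes, by 0.39 (adjusted p = 9.4e-05) in Hep3B, and CYB5R3, which reduces cytochrome b5, rose by 0.28 (adjusted p = 0.0292) in PLC. FDX1 gave 8.75, 8.67 and 8.61 in Hep3B controls and 9.11, 8.98 and 9.12 in treated Hep3B cells, so that the groups did not overlap. The call for POR was lost under 15 of 29 other settings, and that of CYB5R3 under 12 of 30, with -0.01 (adjusted p = 0.958) for the mean of all its probe sets. CYB5R3 was at 10.11 and 10.12 on the PLC replicates 1 and 3 with the low RNA gauge and at 9.84 on replicate 2, against 9.71 to 9.75 on controls, and with the gauge as a covariate its change was 0.19 (adjusted p = 0.245). Of 7 heme synthesis genes CPOX, which makes protoporphyrinogen, fell in Hep3B from 8.03, 8.14 and 8.20 to 7.12, 7.13 and 7.35, a log2 change of -0.93 ± 0.09 (SE; limma, adjusted p = 2.82e-06). No gene of these 2 lists was called in SNU449.

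Of 14 regulators measured, 2 rose in Hep3B and 3 fell in PLC. AHR went from 9.51, 9.50 and 9.72 to 9.95, 10.04 and 9.98 in Hep3B (log2 change 0.41, adjusted p = 0.000528), and PPARA, the fatty acid receptor that drives family 4 genes, from 6.54, 6.59 and 6.52 to 7.19, 7.08 and 7.04 (0.55, adjusted p = 1.18e-06). Neither overlapped with its controls. In PLC CEBPA changed by -0.40 (adjusted p = 0.0176), NR1H3, the oxysterol receptor LXR-alpha, by -0.40 (adjusted p = 0.00558) and NR0B2, the bile acid-induced repressor SHP, by -0.24 (adjusted p = 0.0335). With the 5′ minus 3′ signal as a covariate the changes were -0.35 (adjusted p = 0.114) for CEBPA, -0.25 (0.112) for NR0B2 and -0.41 (0.0268) for NR1H3, so that NR1H3 alone of these 3 stayed called. All 3 calls were lost when PLC was fitted by itself.

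Of 5 AHR target genes outside the family, 1 fell and none rose in Hep3B, where CYP1B1 rose. There TIPARP, a feedback inhibitor of AHR, fell by 0.25 on the log2 scale (adjusted p = 0.0154). That call was lost under 7 of 29 other settings, among them the deposited values (adjusted p = 0.0507), centring (-0.18, adjusted p = 0.126) and the replicate block (adjusted p = 0.0545), and AHRR, NQO1, ALDH3A1 and UGT1A6 were not called. On control arrays AHRR, the AHR repressor, had means of 8.11 in Hep3B, 4.69 in SNU449 and 4.57 in PLC, TIPARP 10.15, 8.50 and 8.66, and NQO1 12.42, 7.28 and 10.52. All 3 were thus highest in Hep3B, as was CYP1B1, while CYP1A1 was lowest there. AHR itself had control means of 9.58, 10.41 and 9.23.

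**Figure D4:**
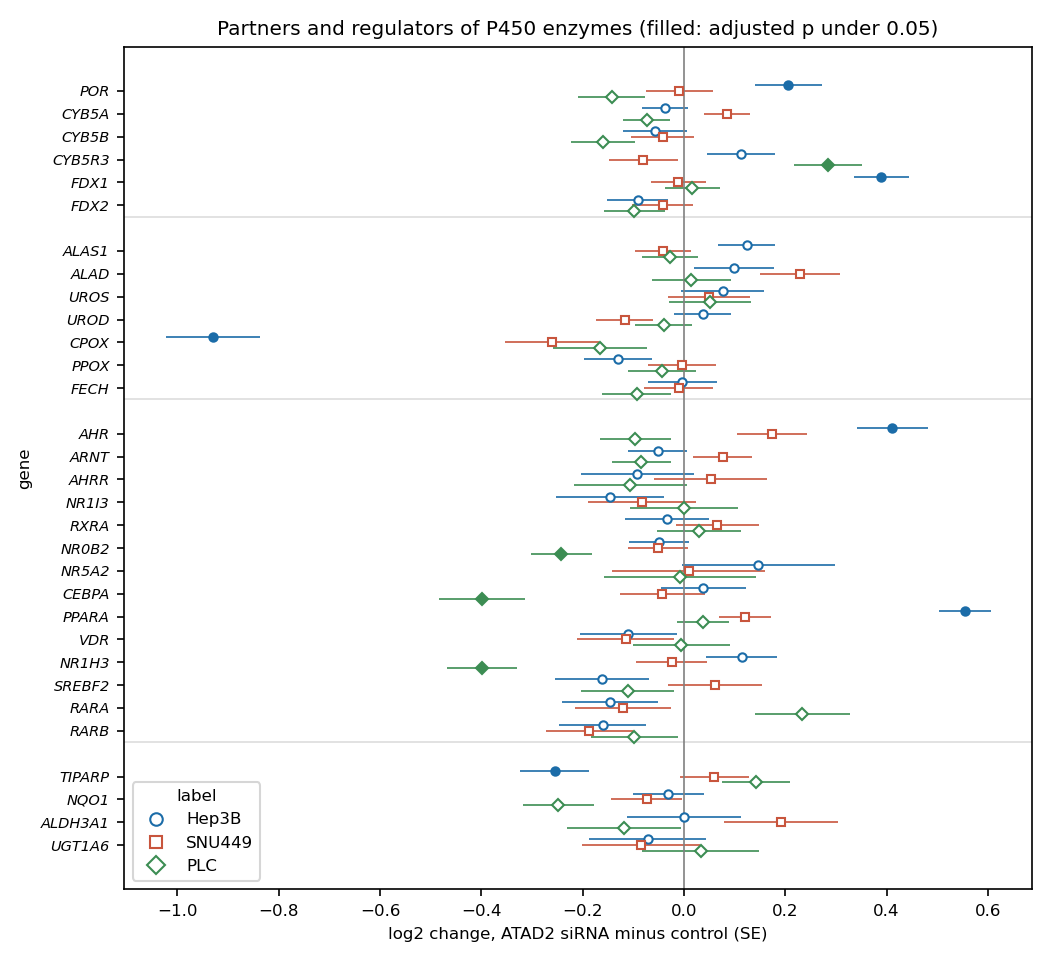
Log2 change after ATAD2 siRNA (x axis, bars give the SE from 3 arrays per group) of electron donors, heme synthesis genes, regulators and AHR target genes (y axis, in this order from the top, separated by lines). Filled symbols passed an adjusted p of 0.05: POR, FDX1, CPOX, AHR, PPARA and TIPARP in Hep3B, CYB5R3, NR0B2, CEBPA and NR1H3 in PLC and none in SNU449.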

How the data were processed

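The authors deposited 1 table of log2 signals of 54675 probe sets on 18 arrays; the log2 scale was judged from the values, 1.33 to 13.97. Limma is named without a version in the submitters' processing notes, and the sources used here give neither a background correction nor a normalization. Columns were quantile normalized over all arrays. Platform annotation gave 1 gene for 41097 probe sets, several for 1801 and none for 11777, and 41043 symbols were updated from RefSeq's GRCh38.p14 table. Limma 3.58.1 in R 4.3.3 (lmFit, eBayes; 12 residual and 4.01 prior degrees of freedom) fitted 1 mean per group over 19775 genes, with two-sided p-values adjusted by Benjamini-Hochberg. The procedure was tested on simulated data. Replicates are biological as labelled, and their number, 3 per group, limits the precision.

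The members, gene lists and tests were chosen with earlier results of these data known. Genes named are ATAD2, members called after siRNA or by the interaction test, the 8 members with the largest called difference per pair of control groups, a fixed set of well-known members, and list genes called after siRNA; the start regions and other members were chosen after their values were seen. Hepatocyte markers (13 measured) gave FGA and FGB, higher, and APOA2 and APOH, lower and within the background range, in Hep3B. In PLC they gave ALB, AFP, APOA1, APOA2, APOC3, APOH, SERPINA1 and AHSG, all lower. Mesenchymal markers (8 measured) gave 1 call, SPARC in Hep3B, higher, and leukocyte and endothelial markers (7 measured) gave CD14, higher, and PECAM1, lower, in Hep3B. TBXAS1 and PTGIS, P450 genes whose symbols do not follow the rule, were not called after siRNA. Alternatives were other scalings, filters on dim genes, other probe set rules, other fits, a replicate block, a stricter threshold, an RNA quality covariate and leaving out arrays.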

Additional observations from a re-analysis of the deposited data

Results flagged for a closer look

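The log2 change of CYP2J2 after ATAD2 siRNA differed between Hep3B, SNU449 and PLC by the interaction test of limma (adjusted p = 0.00192), with changes of 0.27, -0.06 and -0.57. The treated arrays lay above all controls in Hep3B and below all controls in PLC. In Hep3B the change was not called (limma, adjusted p = 0.054), and both group means were within the background range. The change of CYP2R1 differed as well (adjusted p = 0.0177), with 0.43, 0.06 and 0.07. That of CYP7A1 differed at an adjusted p of 0.0452, with 0.13, 0.13 and -0.31 at signals within the background range, and was not called under any of the 3 other scalings.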

How the results depend on the processing

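The counts of called members moved with the choice of genes tested. Percentages in brackets give the share of all tested genes called under the same setting. Without the dimmest 30% of genes, 13842 genes and 24 members were left. The counts were then 7 in Hep3B (27.2%), 1 in PLC (6.75%) and 7 for the difference between lines (17.3%). Without genes within the olfactory receptor range, 11284 genes and 18 members were left. Of these members 44.4% were called in Hep3B, which is 8 (33.4%), and 1 in SNU449 (1.8%), CYP4F2. There were 6 for the difference between lines (23.2%) and 7 between the PLC and Hep3B controls (24.2%). The main counts were 3 (16.4%), 0 (0.258%) and 2 (4.57%) in Hep3B, SNU449 and PLC, 3 between lines (9.18%), and 12 for PLC and Hep3B controls (18.4%). An intensity trend with a robust prior gave 6 in Hep3B (18.8%), and each line fitted by itself gave 0 in PLC (0.0759%). At an adjusted p of 0.01, 1 member was called in PLC (0.733%) and 1 between lines (3.48%). With PLC ATAD2 siRNA replicates 1 and 3 left out, chosen after seeing the data, 1 treated PLC array remained, which is assumed to vary like the other groups. Then the log2 change in PLC was -0.47 for CYP2J2 and -0.51 for CYP4F3. On the values as deposited, 30 members differed between PLC and Hep3B controls (43%) and 26 between SNU449 and PLC controls (47.6%). For the latter pair centring gave 16 (43.4%) and the mean of all probe sets 6 (15.7%), against 10 (19.2%).

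With the replicate block 3 members were called in Hep3B (13.4% of all genes) and 0 in SNU449 (0.0405%). In PLC it was 1 (2.23%), CYP2J2, and between lines 4 (5.24%). Same-numbered arrays deviated with correlations of -0.12 to 0.09. Arrays with different numbers were not compared, so these values cannot tell whether the numbers pair the arrays. Leaving out 1 array at a time gave 2 to 6 calls in Hep3B, 6 without PLC ATAD2 siRNA replicate 2 and 5 without replicate 3. It gave 0 to 1 in SNU449 (CYP4F2, without SNU449 ATAD2 siRNA replicate 1), 1 to 3 in PLC and 1 to 8 between lines. Of all genes, 11.9% to 18.9% were then called in Hep3B and 0.0506% to 0.435% in SNU449. In PLC the share was 2.03% to 16.3%, and between lines 6.15% to 18.4%. The change of CYB5R3 in PLC reversed to -0.0084 with the mean of all probe sets. CYP1B1 and CYP2R1 in Hep3B stayed called under all 29 other settings, and the interaction call of CYP2J2 did too, whereas that of CYP2R1 was lost under 5 of 29 and that of CYP7A1 under 18 of 27. The cause of these shifts was not tested. Signal near background limits 24 of the 47 members in all groups.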
